A study of Mus musculus with 6 samples.

Results

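Expression of 10 pericentral Wnt target genes was compared in primary hepatocytes between WT and S100a16KO+/- mice, all fed alcohol. The study made this comparison to look into the part of S100A16 in lipid accumulation. The genes were Tbx3, Axin2, Rnf43, Znrf3, Lgr5, Nkd1, Tcf7, Glul, Oat and Rhbg. They were taken by symbol from the table of 25718 genes, and all 10 were found in it and passed the filter on low counts. The table holds no measure of position in the liver lobule, so that "pericentral" is the name of the set from background knowledge and was not checked here.

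Hepatocytes of the liver lobule divide their work by position. Those next to the central vein receive Wnt ligands and R-spondins from the endothelium of that vein, which stabilise β-catenin and let it act with TCF factors on target genes. Glul and Oat encode enzymes that these cells use for the capture of nitrogen as glutamine and for the breakdown of ornithine, and Rhbg encodes an ammonia transporter. Axin2, Rnf43, Znrf3 and Nkd1 encode feedback inhibitors of the pathway. Lgr5 is a receptor of R-spondins, Tbx3 is a transcriptional repressor, and Tcf7 encodes the transcription factor TCF1.

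The WT group held 3 libraries from wild-type mice and the second group 3 libraries from heterozygous S100a16 knockout mice, which the sample labels call a knockdown. In the knockout, exons 2 to 3 of the gene had been floxed and removed by EIIa-Cre, which acts in the early embryo, so that the deletion is not limited to hepatocytes. The mice were males of 8 to 10 weeks on a C57BL/6 background. Both groups had received a control liquid diet for 5 days, a diet with 5% ethanol for 10 days and a gavage of ethanol at 5 g/kg, with collection 9 h later, and no group without alcohol was in the series. Each library was counted as 1 replicate. The labels do not say whether each came from a separate animal, and p-values measure the spread between these libraries.

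The libraries held 67658095 to 71807834 estimated counts each. Excesses of genes at 4 counts showed that 1 sequenced fragment was worth about 4 counts, and a count of 0 allows up to 12 counts, or 0.167 to 0.187 CPM (counts scaled to library size), for counting error only. S100a16 itself had 14.7, 15.0 and 16.2 CPM in WT and 6.25, 6.07 and 5.08 CPM in S100a16KO+/- libraries, which fits the labels. All 10 hepatocyte markers were present, with summed levels of 134318 to 146642 CPM in WT and 133653 to 147048 CPM in S100a16KO+/-. WT replicate 1 and S100a16KO+/- replicate 2 stood apart from the rest in the share of mitochondrial counts, with 21.1% and 20.1% against 17.0% to 18.6%, and in the share of the 20 most abundant genes, with 39.3% and 38.6% against 35.2% to 36.5%.

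Of the 10 genes, 4 were lower in S100a16KO+/- hepatocytes (Tbx3, Axin2, Rnf43 and Oat), 1 was higher (Rhbg), and 5 did not pass the test (Glul, Znrf3, Tcf7, Lgr5 and Nkd1). A gene was called at an adjusted p under 0.05 in a two-sided quasi-likelihood test over 15957 genes. Among all tested genes 22.8% were called, 11.2% lower and 11.6% higher. Since the 10 genes and the lists below were chosen with earlier results of these data known, such shares are description only. The median log2 fold change of the 10 genes was -0.54, against 0.01 over all tested genes. The ranges of the 2 genotypes did not overlap in CPM for 7 of the 10, with 6 lower and 1 higher, where 37.9% of all tested genes had no overlap (18.6% lower and 19.2% higher). By the rule of the study, an unadjusted p under 0.05 with a change of at least 2-fold, 2 of the 10 changed, Tbx3 and Axin2, both lower, against 4.52% of tested genes (1.62% lower). The rule was applied here to p-values of edgeR, where the study used DESeq2. The 5 calls held in all 18 alternative analyses, including the one without both libraries that stood apart. In bulk RNA, fewer cells of a type and less RNA per cell cannot be told apart.

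**Figure D1:**
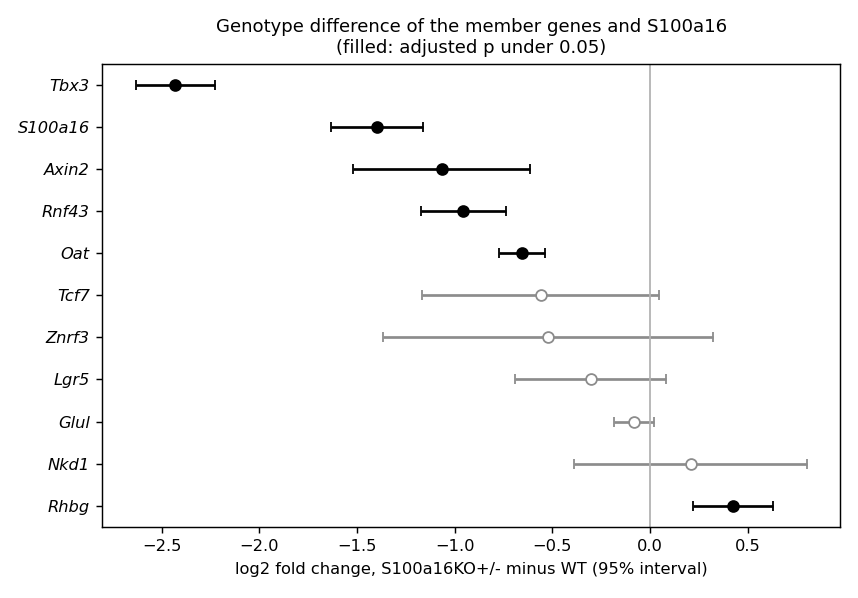
Log2 fold change between S100a16KO+/- and WT hepatocytes (x axis, with 95% intervals) for each of the 10 pericentral Wnt target genes and for S100a16, 3 libraries per genotype; filled points have an adjusted p under 0.05. Tbx3 lies at -2.43, beyond S100a16 at -1.40, Axin2, Rnf43 and Oat lie between -1.07 and -0.65, and Rhbg is the filled point above 0.

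Tbx3 (chr5:119670669-119684724 on mm10, + strand) had the largest fall of the set. It encodes a T-box repressor of transcription and is known as a β-catenin target in liver. Its level was 36.8, 34.6 and 34.2 CPM in the WT libraries and 5.70, 6.91 and 7.00 CPM in the S100a16KO+/- libraries. Every S100a16KO+/- library thus held less than every WT library, with a narrow spread in both groups. The mean was 4.74 ± 0.0702 FPKM in WT and 0.881 ± 0.10 FPKM in S100a16KO+/- (SD, n = 3), or 18.6% of the WT level on the fitted scale. The log2 fold change was -2.43 ± 0.094 (SE), with a 95% interval of -2.63 to -2.23 and an adjusted p of 2.21e-10. Among all tested genes, 36 called genes fell by more. With log2(FPKM + 1) as the measure, which compresses low values, the difference was -1.61. Tbx3os1, an antisense gene that overlaps the start of Tbx3 on chromosome 5, had 293 to 360 counts in WT and 150 to 309 in S100a16KO+/- (log2 fold change -0.51, adjusted p = 0.109).

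The feedback inhibitor Axin2, a scaffold of the complex that degrades β-catenin and a widely used readout of Wnt signalling, fell about 2-fold. It lies at chr11:108920349-108950783 on the + strand. The 3 WT libraries had 6.34, 5.19 and 5.07 CPM, and the 3 S100a16KO+/- libraries 2.90, 3.28 and 1.75 CPM. No S100a16KO+/- value reached the lowest WT value, and replicate 3 was the lowest of all. These levels rest on 87 to 108 fragments per WT library and 32 to 53 per S100a16KO+/- library. The fall was 2.09-fold (log2 fold change -1.07 ± 0.21 SE, 95% interval -1.52 to -0.61, adjusted p = 0.00206). It ranged from -1.25 to -0.84 when single libraries were left out, and was -0.41 on log2(FPKM + 1). Its paralog Axin1 showed no such difference, with 765, 832 and 793 counts in WT and 712, 848 and 830 in S100a16KO+/- (log2 fold change 0.02 ± 0.11 SE, adjusted p = 0.941).

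Rnf43 and Znrf3 encode sister ubiquitin ligases of the cell membrane that remove Frizzled receptors and are themselves held back by R-spondins and LGR receptors. They lie on chromosome 11, Rnf43 at chr11:87662722-87735539 on the + strand and Znrf3 at chr11:5276324-5444847 on the - strand. Rnf43 was measured at 22.2, 23.5 and 22.0 CPM in WT and at 11.3, 10.3 and 13.4 CPM in S100a16KO+/-, with a wide gap between the groups. Its mean fell from 3.07 ± 0.223 to 1.59 ± 0.291 FPKM, a 1.94-fold difference (log2 fold change -0.96 ± 0.10 SE, adjusted p = 8.25e-06). The gene 1110028F11Rik, inside Rnf43 on the same strand, had 14 to 65 counts per library beside the 659 to 1657 of Rnf43. Znrf3 was measured at 8.83, 9.29 and 8.97 CPM in WT and at 3.20, 7.95 and 7.72 CPM in S100a16KO+/-. All 3 S100a16KO+/- values lay below the WT values, but replicate 1 stood far below the other two. The log2 fold change of Znrf3 was -0.52 with a 95% interval of -1.37 to 0.32 and an adjusted p of 0.365, and without that library it was -0.21. The low Znrf3 library was not low in Rnf43, where it was the middle one of its group. The difference between the changes of Rnf43 and Znrf3 was not tested.

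Lgr5 (chr10:115450311-115587780, - strand), the R-spondin receptor that marks stem cells in several epithelia and pericentral hepatocytes in liver, was expressed at a low level and did not pass the test. It had 3.63, 4.93 and 3.30 CPM in WT and 3.19, 3.00 and 3.42 CPM in S100a16KO+/-, and the groups overlapped. The log2 fold change was -0.30 with a 95% interval of -0.69 to 0.08 (adjusted p = 0.268), so that at 48 to 87 fragments per library a fall of the size seen for Rnf43 lay outside the interval and a difference of 0 lay inside it. Its paralog Lgr4, which also binds R-spondins, was more abundant and rose from 3.90 ± 0.307 to 5.25 ± 0.790 FPKM (log2 fold change 0.42 ± 0.08 SE, adjusted p = 0.00193). On the log2(FPKM + 0.1) scale the adjusted p of Lgr4 was 0.0667.

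Nkd1 (chr8:88521354-88594884, + strand), an inhibitor that binds Dishevelled, and Tcf7 (chr11:52252371-52283331, - strand) had the fewest fragments of the set in most libraries. Nkd1 had 1.23, 1.58 and 1.26 CPM in WT and 2.08, 1.51 and 1.11 CPM in S100a16KO+/-, with 20 to 36 fragments per library, and the groups overlapped. Its log2 fold change of 0.21 had a 95% interval of -0.39 to 0.80 (adjusted p = 0.666) and became -0.05 without S100a16KO+/- replicate 1, the highest library. Tcf7 had 1.70, 1.9 and 2.38 CPM in WT and 1.04, 1.06 and 1.96 CPM in S100a16KO+/-. S100a16KO+/- replicates 1 and 2 lay below every WT library, while replicate 3 lay among them. The log2 fold change of Tcf7 was -0.56 (95% interval -1.17 to 0.05, adjusted p = 0.186), and without replicate 3 it was -0.93 with an adjusted p of 0.0383. Nkd2, the paralog of Nkd1, had no more than 11 counts in any library, which is under the limit set by a count of 0.

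Oat (chr7:132557478-132576398, - strand), the most abundant gene of the set, encodes the mitochondrial enzyme that turns ornithine into the precursor shared by glutamate and proline. The WT libraries had 270.3, 279.1 and 292.5 CPM and the S100a16KO+/- libraries 185.6, 168.5 and 180.7 CPM. The groups were widely separated. The mean was 106.3 ± 8.09 FPKM in WT and 67.9 ± 6.42 FPKM in S100a16KO+/-, a 1.57-fold fall (log2 fold change -0.65 ± 0.055 SE, 95% interval -0.77 to -0.54, adjusted p = 8.18e-07). Oat lies within the span of Fgfr2 on the same strand of chromosome 7. Fgfr2, at 567 to 765 counts in WT and 1355 to 1616 in S100a16KO+/-, moved the other way (log2 fold change 1.16, adjusted p = 1.81e-06), and its counts were small beside the 10828 to 20018 counts of Oat.

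Glul (chr1:153899944-153909723, + strand) encodes glutamine synthetase, found in liver in the innermost ring of pericentral hepatocytes, and did not pass the test. It had 165.9, 168.8 and 166.8 CPM in WT and 159.2, 159.4 and 155.5 CPM in S100a16KO+/-. In CPM the groups did not overlap, whereas in FPKM S100a16KO+/- replicates 1 and 3, at 38.5 and 38.3, lay above WT replicate 1, at 37.2. The log2 fold change was -0.08 with a 95% interval of -0.18 to 0.02 and an adjusted p of 0.270. With 2562 to 2970 fragments per library, this interval leaves out the falls seen for Oat, Rnf43, Axin2 and Tbx3. The differences between genes were not tested. Teddm2, which overlaps the start of Glul on the opposite strand, had 33 to 75 counts per library, and Mir8114 at most 5.

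Rhbg (chr3:88242874-88254709, - strand) rose. It encodes an ammonia transporter of the Rhesus family in the membrane of pericentral hepatocytes. Its level was 11.5, 11.2 and 13.6 CPM in WT and 16.1, 16.2 and 16.5 CPM in S100a16KO+/-, so that all S100a16KO+/- libraries lay above all WT libraries. The mean rose from 5.57 ± 0.714 to 7.53 ± 0.428 FPKM, a 1.34-fold difference (log2 fold change 0.43 ± 0.096 SE, 95% interval 0.22 to 0.63, adjusted p = 0.00499). The overlapping gene Gm38392 had 5 counts in S100a16KO+/- replicate 2 and 0 elsewhere. Of its paralogs, Rhd had 6 counts in S100a16KO+/- replicate 1 and 0 in every other library, which is under the limit set by a count of 0.

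On the FPKM scale, which corrects for length and allows levels of different genes to be compared, the set spanned 106.3 FPKM for Oat to 0.263 FPKM for Nkd1 in WT. The order in WT was Oat, Glul, Rhbg, Tbx3, Rnf43, Znrf3, Axin2, Tcf7, Lgr5 and Nkd1, and only the ranges of Znrf3 with Axin2 and of Lgr5 with Nkd1 overlapped among neighbours. In S100a16KO+/- the order began with Oat, Glul, Rhbg and Rnf43, and from Tbx3 downwards the ranges of all neighbours overlapped. Tbx3, which stood at 4.74 FPKM above Rnf43 at 3.07 FPKM in WT, stood at 0.881 FPKM below Rnf43 at 1.59 FPKM in S100a16KO+/-. The summed level of the 10 genes was 528 to 550 CPM in WT and 378 to 390 CPM in S100a16KO+/-, and Oat and Glul made up most of it.

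**Figure D2:**
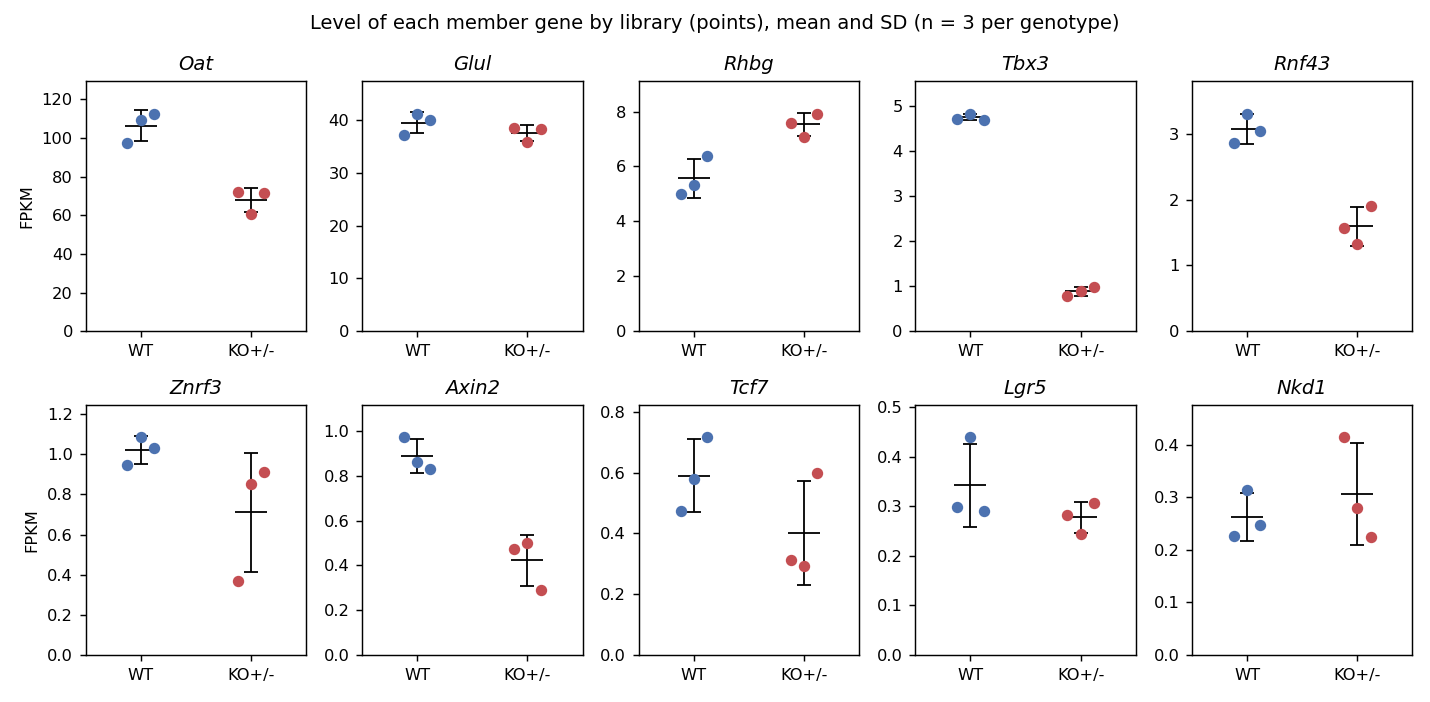
FPKM (y axis, starting at 0, with its own scale in each panel) of the 10 genes in each of the 3 WT (blue) and 3 S100a16KO+/- (KO+/-, red) libraries, with mean and SD. Tbx3, Axin2, Rnf43 and Oat are separated with S100a16KO+/- lower, Rhbg with S100a16KO+/- higher, and S100a16KO+/- replicate 1 is the low point of Znrf3 at 0.370 FPKM.

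The promoters of 6 of the 10 genes (Glul, Oat, Nkd1, Tcf7, Rnf43 and Axin2) were matched by symbol in the RefSeq table of GRCm38.p6. The 250 bases before the start are shown for 2 genes that fell, Axin2 and Oat, and for Glul, which did not pass the test, on the strand of each gene. Axin2 is at chr11:108920099-108920348 on the + strand, Oat at chr7:132576399-132576648 on the - strand and Glul at chr1:153899679-153899928 on the + strand. Capitals mark GGGCGG (a GC box) and CCAAT on either strand.
Axin2: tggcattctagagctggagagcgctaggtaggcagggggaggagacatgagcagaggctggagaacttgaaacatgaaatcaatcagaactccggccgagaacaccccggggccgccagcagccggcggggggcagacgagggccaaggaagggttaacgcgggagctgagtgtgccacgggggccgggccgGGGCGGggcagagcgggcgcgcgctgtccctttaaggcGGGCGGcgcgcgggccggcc
Oat: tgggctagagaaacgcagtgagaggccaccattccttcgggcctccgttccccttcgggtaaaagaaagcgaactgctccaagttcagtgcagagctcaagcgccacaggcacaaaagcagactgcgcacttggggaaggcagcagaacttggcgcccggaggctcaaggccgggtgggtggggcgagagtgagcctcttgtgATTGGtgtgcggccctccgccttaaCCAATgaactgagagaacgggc
Glul: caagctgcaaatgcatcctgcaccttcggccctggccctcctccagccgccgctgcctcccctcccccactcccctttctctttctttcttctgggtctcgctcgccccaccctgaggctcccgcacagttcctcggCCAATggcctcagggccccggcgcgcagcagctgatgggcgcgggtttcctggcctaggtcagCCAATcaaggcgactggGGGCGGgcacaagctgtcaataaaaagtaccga
The shown stretch of Axin2 holds 2 GC boxes and no CCAAT, that of Oat 2 CCAAT and no GC box, and that of Glul 1 GC box and 2 CCAAT. G and C made up 69.2% of the Axin2 stretch, 60.0% of the Oat stretch and 64.8% of the Glul stretch, against a median of 52.4% over 32851 windows. The letters CTTTG followed by AT, AA, TT or TA, to which TCF factors bind, were searched on both strands in windows that also take in the first 50 bases of the transcript. They were in 0 of the 8 windows of the 6 genes and in 16.9% of all windows, which says only that these letters are not in those windows. Several windows are not at the start of the gene as given with the counts. Their starts lay 6279 bases inside it for Nkd1, 365 and 37175 bases for Rnf43, and 317 and 736 bases for Tcf7. GGGCGG was in 5 of the 8 and in 35.7% of all windows, CCAAT in 4 and in 37.4%, and TATAAA in 1 and in 13.6%.

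Other genes of the Wnt pathway changed in both directions. Of 59 tested genes in 8 lists ordered by role, 20 were called, where 22.8% of all tested genes were (11.2% lower and 11.6% higher). Among the ligands, 7 were tested. Wnt9b and Wnt2, which liver endothelium secretes, rose. Wnt9b had 42 to 65 counts in WT and 107 to 140 in S100a16KO+/- (log2 fold change 1.29 ± 0.28 SE, adjusted p = 0.00353). Wnt2 had 248, 276 and 275 counts in WT and 383, 338 and 407 in S100a16KO+/- (log2 fold change 0.51, adjusted p = 0.0160), and its adjusted p was 0.0525 without WT replicate 1 and 0.0561 without S100a16KO+/- replicate 3. The genotypes did not overlap in either gene, nor in 37.9% of all tested genes. Of the 7 tested ligands, 3 had no overlap with S100a16KO+/- higher and 2 with S100a16KO+/- lower. Wnt5b, a ligand known for β-catenin-independent signalling, fell from 3.78 ± 0.252 to 2.50 ± 0.363 FPKM (log2 fold change -0.59, adjusted p = 0.00399). The R-spondin gene Rspo3 had 47 to 66 counts in WT and 62 to 77 in S100a16KO+/- and did not pass the test (log2 fold change 0.38, adjusted p = 0.445), and Rspo1 had 4 counts in S100a16KO+/- replicate 1 and 0 elsewhere. Of the secretion factors, Wls stood at a log2 fold change of 0.43 (adjusted p = 0.122) and Porcn at 0.26 (adjusted p = 0.392).

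Among the receptors, 3 of 11 tested rose and 3 fell, where 11.6% of all tested genes rose and 11.2% fell. Fzd8 rose from 2.44 ± 0.234 to 6.07 ± 0.767 FPKM (log2 fold change 1.31 ± 0.093 SE, adjusted p = 1.65e-07), the largest change of the list. Fzd7 fell from 2.62 ± 0.145 to 1.63 ± 0.206 FPKM (log2 fold change -0.69, adjusted p = 0.000396) and Fzd4 from 5.53 ± 0.362 to 4.55 ± 0.173 FPKM (log2 fold change -0.28, adjusted p = 0.00437). Lgr4, given above, rose too. The other called receptors, named after their values were seen, were Ryk (0.25, adjusted p = 0.0232), which rose, and Fzd6 (-0.59, adjusted p = 0.0256), which fell. On either FPKM scale 1 receptor rose and 1 fell.

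The list of Dishevelled proteins, the complex that degrades β-catenin, the tankyrases and β-catenin itself had small differences. Ctnnb1, which encodes β-catenin, was at 21.6 ± 2.01 FPKM in WT and 19.8 ± 2.46 FPKM in S100a16KO+/- (log2 fold change -0.13, adjusted p = 0.169). Among all tested genes 11.2% fell and 11.6% rose. Of the 17 tested genes of this list 4 fell, each by a small amount, and 0 rose in edgeR, DESeq2 and limma voom, with 0 higher at an unadjusted p under 0.05. The 4 were the kinase Csnk1a1 (-0.23, adjusted p = 0.0111), the tankyrases Tnks2 (-0.25, adjusted p = 0.0126) and Tnks (-0.27, adjusted p = 0.0319), which turn over axin, and Gsk3b (-0.28, adjusted p = 0.0340), the last named after its value was seen. This count was 0 without WT replicate 3, with scaling by library size alone and on both FPKM scales, and 2 without WT replicate 2 or without S100a16KO+/- replicate 2.

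The list of TCF factors and their nuclear partners, both coactivators and corepressors, held some of the larger changes. Tle3, a Groucho-family corepressor that TCF factors recruit, had 1022, 933 and 909 counts in WT and 308, 262 and 301 in S100a16KO+/-, with no overlap. It fell from 1.05 ± 0.0286 to 0.324 ± 0.0269 FPKM (log2 fold change -1.71 ± 0.11 SE, adjusted p = 5.31e-08). Its relative Tle1 rose from 1.83 ± 0.215 to 3.03 ± 0.309 FPKM (log2 fold change 0.72, adjusted p = 1.54e-05). Tcf7l2, a TCF factor used in adult liver, fell from 0.866 ± 0.0820 to 0.542 ± 0.0542 FPKM (log2 fold change -0.68, adjusted p = 0.000752). Bcl9l, a coactivator, fell by 0.60 on the log2 scale (adjusted p = 0.00967). Of the other relatives of Tcf7, Tcf7l1 stood at a log2 fold change of 0.01 (adjusted p = 0.969), with its sign turning under several settings. Its level was above that of Tcf7l2, at 1.17 ± 0.0423 FPKM in WT and 1.18 ± 0.233 FPKM in S100a16KO+/-. Lef1 had 0 to 18 counts in each library. In all, 1 of 13 tested genes of this list rose and 3 fell, where 11.6% of all tested genes rose and 11.2% fell. The median log2 fold change of the list was 0.01. Without WT replicate 3 or without S100a16KO+/- replicate 3, 2 of the list rose. Tcf7l2 thus passed the test where Tcf7 itself did not, and the difference between them was not tested.

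Notum, a secreted enzyme that inactivates Wnt ligands and is itself a pericentral Wnt target, was the 1 called gene of 3 tested antagonists. It fell from 23.7 ± 0.960 to 18.1 ± 0.562 FPKM (log2 fold change -0.40, adjusted p = 0.000123). Dkk3, named after its value was seen, had 24 to 77 counts in WT and 85 to 99 in S100a16KO+/- (log2 fold change 0.99, adjusted p = 0.0794), and 1 antagonist rose without WT replicate 1, with limma voom, with the filter of 1 CPM in 3 libraries and with counts divided by 4. Of 7 other targets tested, Notum, Tnfrsf19 (log2 fold change -1.04 ± 0.10 SE, adjusted p = 4.69e-06) and the cyclin gene Ccnd1 (-0.53 ± 0.085 SE, adjusted p = 0.000396) fell and 0 rose in edgeR, with 1 higher at an unadjusted p under 0.05 and 0 that rose in DESeq2 and limma voom, but 1 that rose without S100a16KO+/- replicate 3. Tnfrsf19, a receptor of the tumour necrosis factor family, had 842, 963 and 965 counts in WT and 463, 426 and 451 in S100a16KO+/-. Notum, Tnfrsf19 and Ccnd1 fell like Axin2, Rnf43 and Tbx3, whereas Rhbg rose. Called or not, 4 of the 7 other targets were lower and 3 were higher. The share called over all tested genes was 11.2% lower and 11.6% higher.

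**Figure D3:**
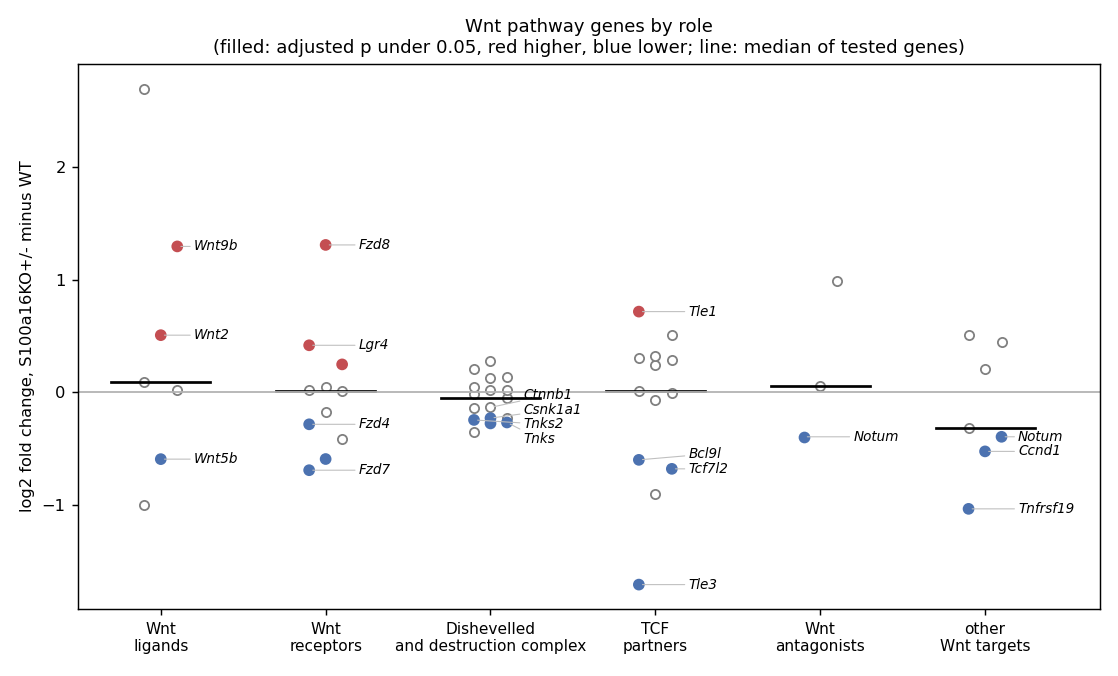
Log2 fold change between S100a16KO+/- and WT hepatocytes (y axis) of the tested Wnt pathway genes in 6 roles (x axis), 3 libraries per genotype, with called genes filled (red higher, blue lower) and the median of each role as a line. Tle3 is the lowest point, at -1.71, Fzd8 and Wnt9b are the highest called points, and the 17 genes of the Dishevelled and destruction complex list lie between -0.35 and 0.28.

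Further genes that are zoned in the liver lobule gave the surroundings of the 10 genes. Which of them are themselves Wnt targets was not checked. Like the 10 genes, these lists were chosen with earlier results of these data known, so the shares below are description only. Of 30 tested pericentral genes 14 fell and 4 rose, with a median log2 fold change of -0.22. Of 23 tested periportal genes 11 rose and 3 fell, with a median of 0.15. Among all tested genes 11.2% fell and 11.6% rose, with a median of 0.01. The summed level of the pericentral list was 20738 to 21972 CPM in WT and 16312 to 18426 CPM in S100a16KO+/-, and that of the periportal list 19383 to 19698 CPM in WT and 24080.3 to 24393 CPM in S100a16KO+/-, with no overlap in either. Single genes made up much of these differences. Mean CPM went from 2186 to 5621 for Pck1, from 6677 to 5307 for Cyp2e1 and from 2470 to 1393 for Cyp2c29. The abundant periportal genes Cps1 and Arg1 were not called. The pericentral cytochrome Cyp2c29 fell from 720 ± 9.56 to 408 ± 15.1 FPKM (log2 fold change -0.83, adjusted p = 1.12e-07), and belongs to a family of similar genes whose reads are hard to assign. Cyp2c37 (-0.51), Cyp2c50 (-0.39) and Cyp2c54 (-0.38) of that family, named after their values were seen, are also among the 14 that fell. Cyp7a1, the rate-limiting enzyme of bile acid synthesis, fell from 50.7 ± 1.0 to 31.5 ± 1.55 FPKM (-0.69, adjusted p = 6.12e-07). Aldh1a1, an aldehyde dehydrogenase, fell by 0.66 on the log2 scale (adjusted p = 4.93e-07). Cyp2e1, which oxidises ethanol, was the most abundant gene of the list and fell from 2763 ± 99.1 to 2205 ± 53.7 FPKM (-0.33, adjusted p = 0.000106). The 4 that rose were Slc1a2, described below, and, named after their values were seen, Gstm2 (0.36), Lect2 (0.22) and Gulo (0.17).

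The periportal genes with the smallest adjusted p all rose. Etnppl, an enzyme of phosphoethanolamine breakdown, rose from 12 ± 0.358 to 36.8 ± 2.25 FPKM (log2 fold change 1.61, adjusted p = 1.66e-11). Pck1, the enzyme that commits carbon to gluconeogenesis, rose from 570 ± 38.4 to 1473 ± 115 FPKM (1.36, adjusted p = 2.39e-11), and the serine dehydratase Sds from 74.2 ± 6.55 to 164 ± 17.4 FPKM (1.14, adjusted p = 4.71e-09). Apoa4, the most abundant, stood at a log2 fold change of -0.13 (adjusted p = 0.0749). The 3 that fell, named after their values were seen, were Cdh1 (-0.31), Uroc1 (-0.24) and Fbp1 (-0.19). The lists do not measure position in the lobule.

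**Figure D4:**
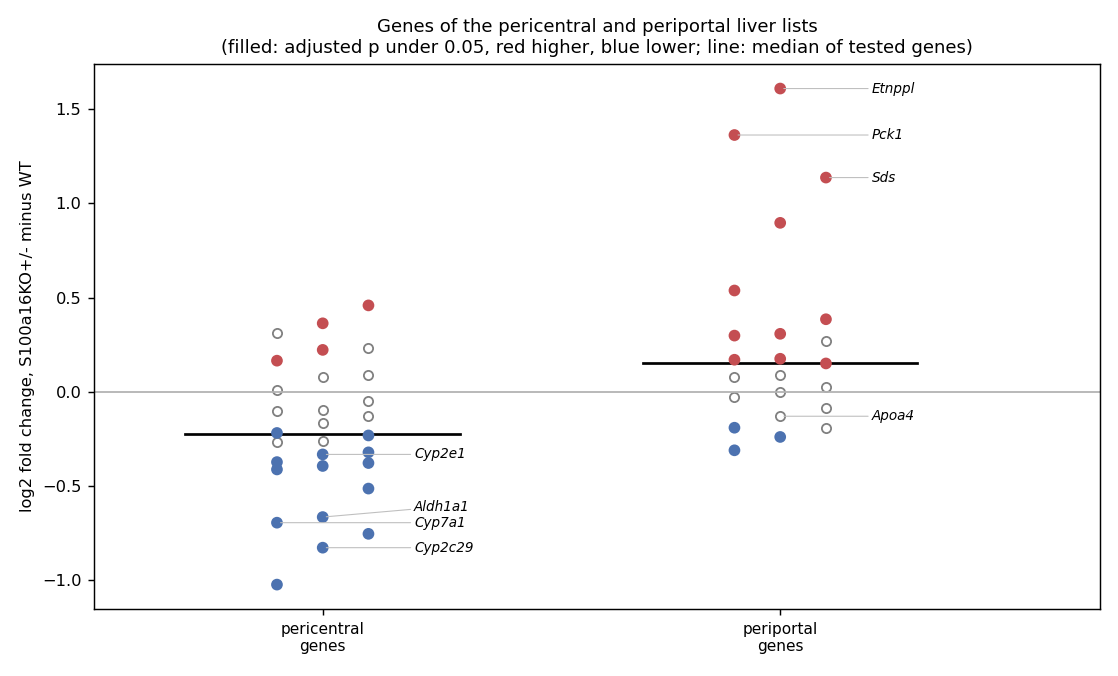
Log2 fold change between S100a16KO+/- and WT hepatocytes (y axis) of 30 pericentral and 23 periportal genes (x axis), 3 libraries per genotype, with called genes filled (red higher, blue lower) and the median of each list as a line. The pericentral median is -0.22 and the periportal median 0.15, with Etnppl, Pck1 and Sds as the highest points.

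The genes that work beside Glul, Rhbg and Oat moved in both directions. Of 10 tested genes for handling ammonia and glutamine, 4 rose and 1 fell, where 11.6% of all tested genes rose and 11.2% fell. Slc38a2, a transporter of glutamine and other neutral amino acids, rose from 15.8 ± 0.626 to 29.9 ± 0.642 FPKM (log2 fold change 0.91, adjusted p = 1.47e-08), and the glutamate transporter Slc1a2, which is found in the same hepatocytes as glutamine synthetase, rose from 2.71 ± 0.176 to 3.75 ± 0.275 FPKM (0.46, adjusted p = 9.07e-05). Slc1a2 had 2599 to 2886 counts in WT and 3425 to 3949 in S100a16KO+/-. The others that rose, named after their values were seen, were Gls2 (0.15, adjusted p = 0.0353) and Slc38a4 (0.13, adjusted p = 0.0459), and 2 of the list rose when WT replicate 1, 2 or 3 or S100a16KO+/- replicate 1 was left out. Glud1, glutamate dehydrogenase, fell from 107 ± 7.00 to 84.8 ± 5.82 FPKM (-0.34, adjusted p = 9.92e-05), and Cps1, which starts the urea cycle, did not pass the test (-0.09, adjusted p = 0.184).

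Of 13 tested genes of ornithine and proline metabolism, 2 rose and 2 fell, where 11.6% of all tested genes rose and 11.2% fell. Odc1, which takes ornithine into polyamines, fell by 0.41 on the log2 scale (adjusted p = 8.19e-05), and Prodh, which oxidises proline, fell by 0.33 (adjusted p = 0.000229). Slc25a15, the carrier of ornithine into mitochondria where Oat acts, rose from 21.2 ± 2.83 to 33.0 ± 5.53 FPKM (log2 fold change 0.63, adjusted p = 0.000573). Gatm, which releases ornithine in creatine synthesis, rose by 0.54 (adjusted p = 0.00549) and was named after its value was seen. Arg1, the arginase of the urea cycle and the most abundant of the list, stood at a log2 fold change of -0.03 (adjusted p = 0.722).

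Markers of other liver and blood cells differed between the genotypes too, and the part of those cells in the values above was not tested. The counts below stand beside 11.6% of all tested genes that rose and 11.2% that fell. Of 13 endothelial markers, among which are Wnt2, Wnt9b and Rspo3, 11 rose and 1 (Lyve1, named after its value was seen) fell, and their summed level was 273 to 285 CPM in WT and 384 to 402 CPM in S100a16KO+/-. Kdr, the most abundant of them, rose from 4.87 ± 0.342 to 7.5 ± 0.714 FPKM (log2 fold change 0.61, adjusted p = 3.14e-06), beside 1.29 for Wnt9b and 0.51 for Wnt2. Of 10 stellate cell markers 6 rose and 0 fell in edgeR, DESeq2 and limma voom, with 0 lower at an unadjusted p under 0.05. Their summed level was 63.0 to 69.5 CPM in WT and 106 to 119 CPM in S100a16KO+/-, with Dcn at a log2 fold change of 0.96 (adjusted p = 2.64e-07). Of 10 Kupffer cell and macrophage markers 3 rose (Marco, C1qb and Cd68, named after their values were seen), with sums of 158 to 186 CPM in WT and 185 to 202 CPM in S100a16KO+/-, and Cd5l had 0.24 (adjusted p = 0.0664).

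T cells are the cells best known for Tcf7. Of 12 T cell markers 11 were tested and 0 were called in edgeR, DESeq2 and limma voom, with 1 higher at an unadjusted p under 0.05 and 1 that rose without S100a16KO+/- replicate 3. Their summed level, at 2.50 to 4.30 CPM in WT and 3.94 to 4.73 CPM in S100a16KO+/-, was low and overlapped between genotypes, and Lck had 39 to 58 counts in WT and 42 to 74 in S100a16KO+/-. Markers of other lymphocytes summed to 3.55 to 4.40 CPM in WT and 3.48 to 3.94 CPM in S100a16KO+/-. Cholangiocyte markers summed to 14.4 to 18.9 CPM in WT and 12.2 to 14.8 CPM in S100a16KO+/-. Of 5 tested, 1 fell (Sox9, named after its value was seen). The 5 erythroid genes in the table (Hba-a1, Hba-a2, Hbb-bs, Hbb-bt and Alas2, of which the globin copies can share reads) all fell, from a sum of 215 to 252 CPM to one of 23.4 to 26.3 CPM, with Hbb-bs at -3.43 (adjusted p = 4.04e-12). Their log2 fold changes ranged from -3.57 to -0.70, so that not every gene fell as far as the sum. No marker of any of these lists that was in the table had 0 counts in all libraries. Of the hepatocyte markers 2 rose (Fgb and Ahsg) and 2 fell (Ttr and Trf), named after their values were seen, with 1 that rose without WT replicate 3 and 1 that fell without WT replicate 2 or 3 or S100a16KO+/- replicate 1 or 3. Without WT replicate 1 and S100a16KO+/- replicate 2 together, 4 hepatocyte markers fell. Alb, albumin, stood at a log2 fold change of -0.05 (adjusted p = 0.536).

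**Figure D5:**
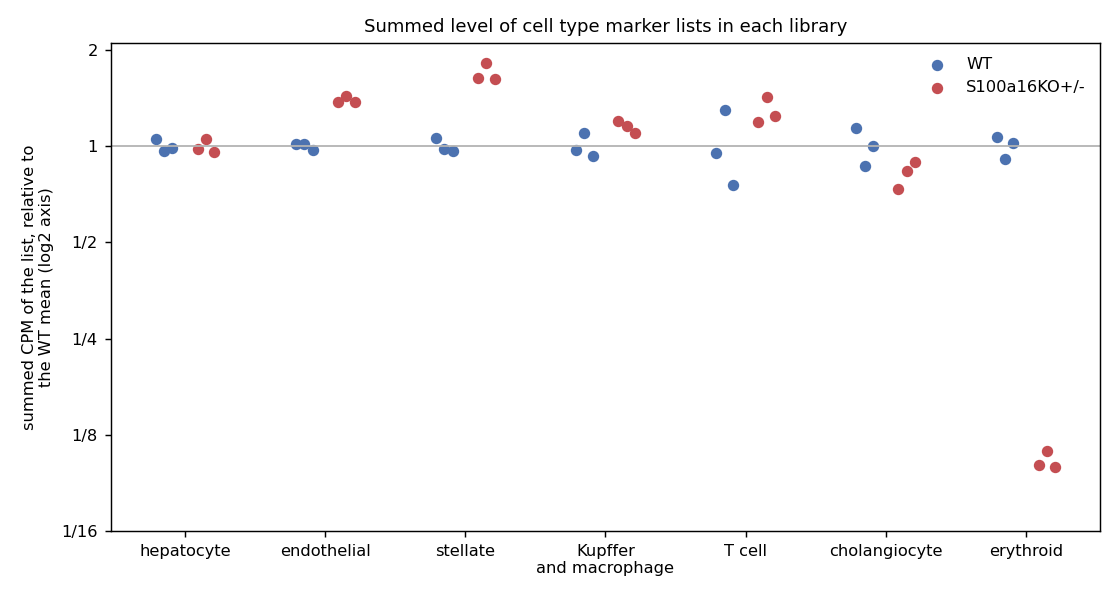
Summed CPM of each cell type marker list in each library, divided by the WT mean of that list (y axis, log2 scale), for 3 WT (blue) and 3 S100a16KO+/- (red) libraries; each point is a library. Hepatocyte sums overlap between genotypes, endothelial and stellate sums are higher in all 3 S100a16KO+/- libraries, and erythroid sums are far lower.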

How the data were processed

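RNA from primary hepatocytes of alcohol-fed mice was sequenced in 6 libraries, 3 per genotype. The authors deposited 1 table with, for each gene and library, an estimated count that is not scaled for depth and an FPKM value that the authors scaled for transcript length and depth. The submitters' processing notes name cutadapt 1.9, HISAT2 2.0.4, UMI-tools, StringTie 1.3.4d, DESeq2, edgeR and build mm10, with no order or role. The libraries were made with a kit that marks the second strand. Whether counting used strand, and whether duplicates were removed by molecular identifiers, is not given in the sources used here, so that reads of overlapping genes on opposite strands may not be told apart. Gene positions of the table equalled those of GENCODE M21 for 9 of the 10 members (all but Tcf7) and for 89.7% of the identifiers found. Genes of the lists that are not in the table were not analysed here.

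Estimated counts were rounded to whole numbers, filtered with filterByExpr, scaled by TMM and fitted in edgeR 4.0.16 (R 4.3.3) with a robust quasi-likelihood model, genotype alone and a two-sided test. The Benjamini-Hochberg adjustment ran over all 15957 tested genes. CPM values carry the TMM scaling. The SE was calculated as the absolute log2 fold change over the square root of the F statistic of the test. The 95% intervals were built from that SE and cover the fit's error only approximately. The test was checked on simulated data with known changes. The study compared the genotypes with DESeq2, which was run here as an alternative (1.42.0), as was limma 3.58.1 with voom. Further alternatives were a block for the replicate number, omission of each library in turn, no filter, a filter of 1 CPM in 3 libraries, median-ratio size factors, library size alone, TMM without the 20 most abundant genes, counts divided by 4, and limma on log2(FPKM + 0.1) and log2(FPKM + 1), restricted to genes whose mean FPKM reached 0.1. Leaving out WT replicate 1 and S100a16KO+/- replicate 2 together was added after seeing the data.

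The members and the gene lists were chosen with earlier results of these data known. Named were the members, S100a16, the paralogs and overlapping genes of a member, of each list the 3 called genes with the smallest adjusted p and the gene with the highest mean FPKM, every gene of lists of up to 4, and the most abundant gene of each marker list. Same-numbered libraries of the genotypes did not deviate together (correlations of -0.047 to 0.052), so the numbers were not taken as pairs. Promoter sequences are from RefSeq on GRCm38.p6. Some marker genes are not reported here.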

Additional observations from a re-analysis of the deposited data

How the results depend on the processing

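The depth of the libraries and their number, 3 per genotype, limit the precision of genes with few counts. Across 18 alternatives, Tbx3, Axin2, Rnf43, Oat and Rhbg were called each time in the same direction, and 5 to 6 of the 10 genes were called, the 6th being Tcf7 without S100a16KO+/- replicate 3. With the replicate block 5 of the 10 genes and 3082 of all tested genes were called, against 3643 without it. It changed no call among the 10. By the study's rule 2 of the 10 changed, 1 to 2 when single libraries were left out (1 without WT replicate 1) and 1 on log2(FPKM + 0.1) and on log2(FPKM + 1). All called genes numbered 2305 and 2316 on these scales, with 1033 and 1035 lower against 1790, and the called Wnt pathway genes 12 and 12 against 20. Genes that met the study's rule numbered 721 with the edgeR p-values used here, and this is not the study's own count. They numbered 382 with the filter of 1 CPM in 3 libraries and 142 on log2(FPKM + 1). The pericentral genes that rose numbered 4, and 2 to 5 when single libraries were left out (2 without WT replicate 2). In the same fits the pericentral genes that fell numbered 11 to 16, against 14 with all libraries. The periportal genes that rose numbered 8 to 12, against 11.

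The sign turned for 5 genes that were not called. Without single libraries Nkd1 ranged from -0.0527 to 0.40, Axin1 from -0.0819 to 0.10, Lck from -0.0272 to 0.43, Lef1 from -0.0651 to 2.29 and Tcf7l1 from -0.21 to 0.14. Without WT replicate 1 and S100a16KO+/- replicate 2 together, Axin1 was -0.11, Lef1 -0.0222 and Tcf7l1 -0.15. Tcf7l1 was -0.0092 with the replicate block, -0.0212 with limma voom and -0.0017 on log2(FPKM + 0.1). The causes were not tested.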
